A study of Mus musculus with 10 samples.

Results

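The Wnt pathway genes described here are 30 mouse genes outside the Frizzled receptor family, chosen by name, with the m6A peaks that lie on them. m6A, or N6-methyladenosine, is an adenosine of RNA that carries an added methyl group. A peak is an interval in which RNA fragments pulled down by an antibody to m6A (the IP) were enriched over input RNA. A peak was given to a gene where they overlapped by at least 50% of the shorter one, on the strand with more IP reads. This rule gave 42 of the 21195 peaks to 20 of the 30 genes. In each of the 42 rows the overlap was at least 99.8% of the shorter one, so none was near the limit of the rule.

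The cells were neural progenitor cells taken from the hypothalamus of E14.5 embryos with the floxed allele Mettl14f/f and grown with FGF2 and EGF at 20 ng/ml each. Mettl14 is the partner of Mettl3 in the m6A methyltransferase. Lentivirus with EGFP and Cre recombinase gave Mettl14 knockout cells, lentivirus with EGFP alone gave control cells, and EGFP-positive cells were sorted after 72 hours. The labels list 4 IP libraries and 1 input library of knockout cells, and as many of control cells. All groups share the floxed allele, the virus backbone and the sort, and the labels do not say how many embryos or cultures stand behind the libraries. The table of peaks has 1 pooled column of IP reads and 1 of input reads, with no genotype or library in their names, so knockout and control could not be compared and no value below has a replicate SD.

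Wnt ligands are lipid-modified secreted proteins that bind Frizzled receptors together with the co-receptors Lrp5 and Lrp6. Without ligand, a destruction complex of Apc, Axin, Gsk3 and casein kinase 1 marks beta-catenin for breakdown. With ligand, Dishevelled proteins help to take that complex apart, and beta-catenin enters the nucleus and acts with Tcf and Lef factors. In the embryonic brain the pathway is known for its part in regional patterning and in the balance of progenitor growth and differentiation. m6A is known to lie mostly in long internal exons and near stop codons, and to affect the stability and translation of mRNA.

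Over all peaks the table held 72308582 IP and 26633390 input reads, a ratio of 2.71, and the depth of single libraries is unknown. Of progenitor markers 7 of 10 had a peak (among them Sox2, Pax6, Notch1 and Slc1a3), and of hypothalamic markers 5 of 8 (Nkx2-1, Six3, Lhx2, Tbx3 and Nkx2-2). Vim, Fabp7, Hes5, Rax, Six6 and Otp had none. Of neuronal markers 2 of 6 had a peak, of oligodendrocyte lineage markers 4 of 6, and of microglial, vascular and mesenchymal markers 0 of 8. By the same rule 44.2% of all protein-coding genes had a peak, so counts this small do not identify the cells. Some marker peaks were thin, with 33 IP and 10 input reads in Sox2 and 90 IP and 63 input reads in Nes. The oligodendrocyte lineage genes Olig1 and Olig2 had 284988 and 228230 IP reads in their peaks. The table lists only intervals called as peaks, so a gene without one can be unexpressed, expressed without m6A, or covered too thinly. Fewer cells of a type and less RNA per cell cannot be told apart in such bulk samples.

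A peak was found in 20 of the 30 Wnt genes (66.7%), against 44.2% of 21900 RefSeq protein-coding genes under the same rule and 53.6% of those whose genomic spans lie in the range of the members' spans (9.52 to 192 kb). With genes taken as independent, the exact 95% interval of the members' share was 47.2% to 82.7%. It holds the 53.6%, while the 44.2% lies below it. Members with a peak had a median span of 93.8 kb, and those without a peak 28.8 kb. The 20 genes had a median of 2 peaks, as did all genes with a peak, and 7 of the 20 (35.0%) had 3 or more peaks, against 23.7% of all genes with a peak. The only row on Gsk3a lies on the strand opposite to the gene in the RefSeq promoter table and overlaps the long noncoding RNA gene 9130221H12Rik. It cannot be taken as a peak of Gsk3a itself. Leaving out rows opposite to an annotated strand, 19 of the 30 members (63.3%) had a peak, against 42.1% of protein-coding genes. Of the other 19 members with a peak, 11 had it on their annotated strand. The remaining 8 have no entry in that table, so their strand could not be checked. By the rule, 456 of 7762 genes with a strand in that table (5.87%) were given rows of the opposite strand.

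In strength, Wnt peaks as a list stood close to all peaks. In the authors' deposited table the log2 fold change of IP over input exceeded 1 with an adjusted p under 0.05 in 41 of 42 rows (97.6%), against 99.2% of all peaks. By the authors' deposited table the 42 rows had a median of 3.07 on this scale, and all peaks 3.06. Taking the strongest peak of each gene, the median was 3.56 for the 20 members and 3.51 for 9674 protein-coding genes with a peak, on the same scale of the authors' deposited table, and 10 of the 20 members lay above the median of all genes, as 50% of genes do. Member peaks ran from 0.62 in Gsk3b to 4.83 in Csnk1a1 in the authors' deposited table, with an SD across peaks of 0.97 on the log2 scale, close to the 0.98 of all peaks.

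**Figure D1:**
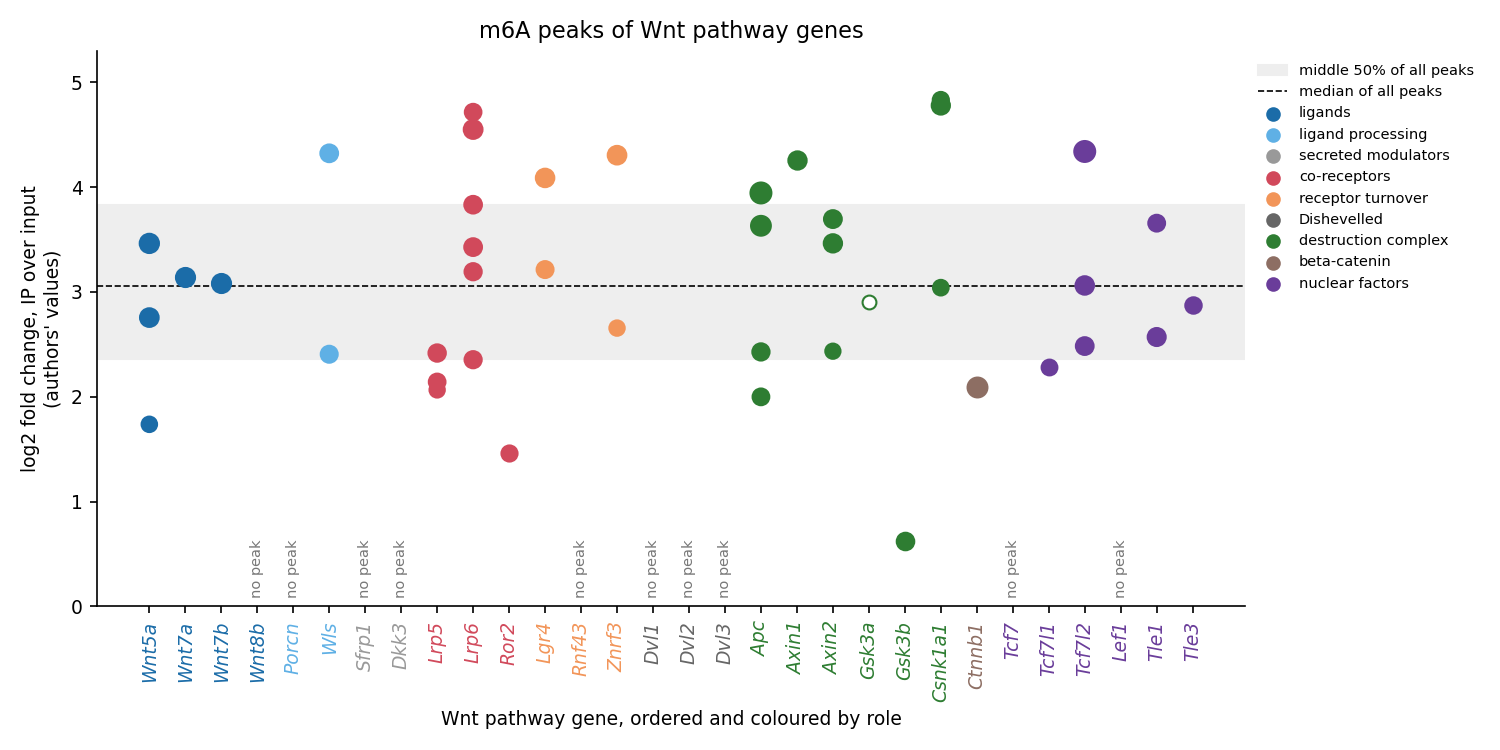
Log2 fold change of IP over input in the authors' deposited table (vertical axis) for each of the 42 peaks (points, larger with more IP reads) of the 30 Wnt pathway genes (horizontal axis, ordered and coloured by role). The dashed line is the median of all peaks, 3.06, the band their middle 50%, and the open point is the Gsk3a row on the opposite strand. Co-receptor values spread from 1.46 to 4.71, and 10 genes had no peak.

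The ligands held moderate peaks, with 3 of 4 genes marked. Wnt5a, a ligand known to act mostly without beta-catenin, had 3 peaks on the plus strand of chromosome 14 (positions here and below are those of the deposited files counted from 1, set against GRCm38.p6 gene spans). The largest (28505975 to 28511519) had 11769 IP and 2799 input reads, a ratio of 4.20 (exact 95% interval 4.03 to 4.38), and the authors' deposited table put it at 3.46 (log2 fold change). The one upstream of it (28504875 to 28505699) had 5940 IP and 1837 input reads, a ratio of 3.23 (3.07 to 3.41), and 2.75 in the authors' deposited table. The third, which spans 11581 bases, had 247 IP and 245 input reads, a ratio of 1.01 (0.841 to 1.21), and 1.74 in the authors' deposited table. These intervals cover counting error only, and by them the 3 Wnt5a peaks differ from each other in IP over input. Wnt7a, which acts through beta-catenin in the developing brain and its vessels, had 1 peak that spans 29630 bases, with 9870 IP and 3355 input reads, a ratio of 2.94 (2.83 to 3.06). Its relative Wnt7b had 1 peak of 1225 bases close to the 3' end of the gene, with 9617 IP and 2581 input reads, a ratio of 3.73 (3.57 to 3.89). Their log2 fold changes were 3.14 and 3.09 in the authors' deposited table, close to each other and to the median of all peaks, while the read ratio was the higher in Wnt7b. Wnt8b, a ligand of the embryonic forebrain, had no peak in its span, and the nearest peak lay 56846 bases away.

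Of the genes that act on ligands, only Wls carried a peak. Wls, the carrier that takes lipidated Wnt proteins to the cell surface, had 2 peaks 1200 bases apart near its 3' end on chromosome 3. The first (159934442 to 159934691) had 2173 IP and 525 input reads, a ratio of 4.14 (3.76 to 4.56), and the authors' deposited table put it at 4.32 (log2 fold change). The second, longer one had 1031 IP and 1108 input reads, a ratio of 0.931 (0.854 to 1.01), and 2.40 in the authors' deposited table. The short peak was thus the more enriched on both scales. Porcn, the acyltransferase that adds the lipid, and the secreted Wnt-binding protein Sfrp1 had none, nor did Dkk3, a divergent member of the Dickkopf family.

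The co-receptors differed widely among themselves, with Lrp6 well above Lrp5 and Ror2. Lrp6, the co-receptor that docks Axin after Wnt binding, had 6 peaks along its 120 kb span on the minus strand of chromosome 6. The highest (134540922 to 134541171) had 713 IP and 210 input reads, a ratio of 3.40 (2.91 to 3.98), and the authors' deposited table put it at 4.71 (log2 fold change), above 94.7% of all peaks. The peak with most IP reads (134479699 to 134485769) had 6834 IP and 1487 input reads, a ratio of 4.6 (4.34 to 4.86), and 4.55 in the authors' deposited table. The lowest of the 6, which starts 45 bases into the gene and spans 25447 bases, had 1236 IP and 1128 input reads, a ratio of 1.10 (1.01 to 1.19), and 2.35 in the authors' deposited table. Enrichment along Lrp6 thus differed over 2.36 log2 units in the authors' deposited table, the widest range within any member on that scale. By the read ratio the range was wider in Apc and in Wls.

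Lrp5, the close relative of Lrp6, had 3 weak peaks. Going from the 5' end they had 770 IP and 525 input reads, then 214 IP and 141 input reads, then 1509 IP and 1088 input reads at the very 3' end of the span. Their ratios of 1.47 (1.31 to 1.64), 1.52 (1.22 to 1.89) and 1.39 (1.28 to 1.5) had overlapping intervals, so counting error alone did not let them be told apart. The 3 log2 fold changes were 2.14, 2.06 and 2.42 in the authors' deposited table, all below the lowest Lrp6 value but the last, which was just above it. Summed over peaks, Lrp6 had 14290 IP and 5224 input reads, a ratio of 2.74 (2.65 to 2.82), and Lrp5 2493 IP and 1754 input reads, a ratio of 1.42 (1.34 to 1.51). The Lrp6 sum includes rows of 25447 to 27506 bases that lie within 250 bases of a neighbouring row. By the rule its most 3' row also belongs to the gene Gm52921. Ror2, a receptor tyrosine kinase for Wnt5a, had 1 peak at its 3' end with 448 IP and 378 input reads, a ratio of 1.19 (1.03 to 1.36), and the authors' deposited table put it at 1.46 (log2 fold change), above only 3.32% of all peaks.

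Among genes that set the amount of receptor at the surface, Znrf3 and Lgr4 were strongly enriched near their 3' ends. Znrf3 is a ubiquitin ligase that removes Frizzled receptors, and Lgr4 is a receptor for R-spondins, which block it. The larger Znrf3 peak (chromosome 11, 5280649 to 5286133) had 5782 IP and 943 input reads, a ratio of 6.13 (5.72 to 6.58), the highest of the 42 rows, and the authors' deposited table put it at 4.30 (log2 fold change). A second Znrf3 peak of 275 bases lay 825 bases further downstream, with 224 IP and 123 input reads, a ratio of 1.82 (1.46 to 2.29), and 2.65 in the authors' deposited table. Lgr4 had a peak at each end of its 96.6 kb span. The 3' one (chromosome 2, 110011474 to 110012923) had 4932 IP and 1092 input reads, a ratio of 4.52 (4.23 to 4.83), and 4.09 in the authors' deposited table. The 5' one had 982 IP and 475 input reads, a ratio of 2.07 (1.85 to 2.31), and 3.21 in the authors' deposited table, lower on both scales. Rnf43, the relative of Znrf3 with the same activity, had no peak in its 72.5 kb span.

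None of the 3 Dishevelled genes, Dvl1, Dvl2 and Dvl3, whose proteins relay the signal from Frizzled to the destruction complex, had a peak. Their spans of 11.9, 9.52 and 17.1 kb are among the shortest of the members. Within 5000 bases of Dvl2 lay 2 peaks and of Dvl3 1, which the rule does not give to them.

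The destruction complex was marked in its scaffolds and in casein kinase 1 alpha, and hardly in its Gsk3 kinases. Apc, the large scaffold, had 4 peaks on chromosome 18, with midpoints 72.7% or more of the way along its span. The most downstream (34314187 to 34318886) had 85362 IP and 20080 input reads, a ratio of 4.25 (4.19 to 4.32), and the authors' deposited table put it at 3.94 (log2 fold change). It ranked 47th of all 21195 peaks by IP reads. The next one upstream, 75 bases away, had 22081 IP and 10122 input reads, a ratio of 2.18 (2.13 to 2.23), and 3.63 in the authors' deposited table. The remaining rows had 1326 IP and 1314 input reads and 813 IP and 1084 input reads, with 2.43 and 2.00 in the authors' deposited table. IP over input in Apc was thus lowest, 0.750 (0.684 to 0.822), in a row of only 75 bases and highest in the most 3' one.

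The Axin scaffolds, which bind the other members of the complex, were both enriched. Axin1 had 1 peak that spans 45501 bases, with 4027 IP and 883 input reads, a ratio of 4.56 (4.24 to 4.91), and the authors' deposited table put it at 4.26 (log2 fold change). Axin2, which is itself a transcriptional target of the pathway, had 3 peaks. From the 5' end they had 196 IP and 49 input reads, 4015 IP and 980 input reads, and 2383 IP and 466 input reads. The ratios were 4.0 (2.91 to 5.59), 4.10 (3.82 to 4.4) and 5.11 (4.63 to 5.66), of which the third exceeded the second beyond counting error and the first could be told from neither. The authors' deposited table gave them 2.43, 3.46 and 3.69, so that the first stood apart there.

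Csnk1a1, the kinase that primes beta-catenin for Gsk3, had 3 peaks in the 3' part of its gene. The last, of 250 bases, had 3741 IP and 827 input reads, a ratio of 4.52 (4.19 to 4.88), and the authors' deposited table put it at 4.78 (log2 fold change). The middle one had 471 IP and 118 input reads, a ratio of 3.99 (3.26 to 4.93), and 4.83 in the authors' deposited table, the highest of the 42 rows. The first had 284 IP and 215 input reads, a ratio of 1.32 (1.10 to 1.58), and 3.04 in the authors' deposited table.

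Gsk3b, the kinase that completes the marking of beta-catenin, had a single peak at its 5' end (chromosome 16, 38089076 to 38090475) with 1830 IP and 2262 input reads, a ratio of 0.809 (0.760 to 0.861). Its log2 fold change was 0.62 in the authors' deposited table (adjusted p 0.0029), which was the 42nd lowest of all 21195 peaks. For its relative Gsk3a the opposite-strand row had 61 IP and 25 input reads, a ratio of 2.44 (1.51 to 4.06), and 2.90 in the authors' deposited table. With that row the median of the strongest peaks of the complex was 3.82, and without it 3.94, in the authors' deposited table.

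Ctnnb1, which encodes beta-catenin, had many reads and weak enrichment. Its 400-base peak near the 3' end (chromosome 9, 120959452 to 120959851) had 24589 IP and 18690 input reads, a ratio of 1.32 (1.29 to 1.34). The log2 fold change was 2.10 in the authors' deposited table, above 15.6% of all peaks, although the peak ranked 407th by IP reads. The row carries 2 gene identifiers, so its reads may not all come from Ctnnb1.

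In the nucleus, Tcf7l2 stood apart from the other factors in number of reads and in deposited fold change, which both rest on 1 row of 100 bases. By read ratio a Tle1 peak was higher. Tcf7l2, a Tcf factor that binds beta-catenin, had a 100-base peak at its 3' end (chromosome 19, 55933036 to 55933135) with 84500 IP and 25168 input reads, a ratio of 3.36 (3.31 to 3.41), and the authors' deposited table put it at 4.34 (log2 fold change). It ranked 50th of all peaks by IP reads. Only 25 bases upstream, a 300-base row had 2235 IP and 2574 input reads, a ratio of 0.868 (0.820 to 0.919), and 2.48 in the authors' deposited table. Why rows this close differ so much in IP and input reads was not tested. Another peak at the 5' end had 4806 IP and 2118 input reads, a ratio of 2.27 (2.16 to 2.39), and 3.06 in the authors' deposited table. By the rule this row also belongs to the long noncoding RNA gene Gm31734. Together, the largest peaks of Apc and Tcf7l2 held 53.5% of the 317328 IP reads in the 42 rows.

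Tcf7l1, a Tcf factor known mostly as a repressor, had 1 small peak with 333 IP and 232 input reads, a ratio of 1.44 (1.21 to 1.70), and the authors' deposited table put it at 2.28 (log2 fold change). Tcf7 and Lef1, the other factors of the family, had none, and the nearest peaks lay 90156 and 66409 bases from their spans. The Tle proteins are co-repressors that Tcf factors recruit when beta-catenin is absent. Tle1 had 3005 IP and 722 input reads in a 5' peak, a ratio of 4.16 (3.84 to 4.52), and 865 IP and 329 input reads in a 3' peak, a ratio of 2.63 (2.31 to 2.99). The authors' deposited table ranked them the other way, with 2.57 for the 5' and 3.66 for the 3' peak. Tle3 had 1 peak near its 3' end with 607 IP and 227 input reads, a ratio of 2.67 (2.29 to 3.13), and 2.87 in the authors' deposited table.

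**Figure D2:**
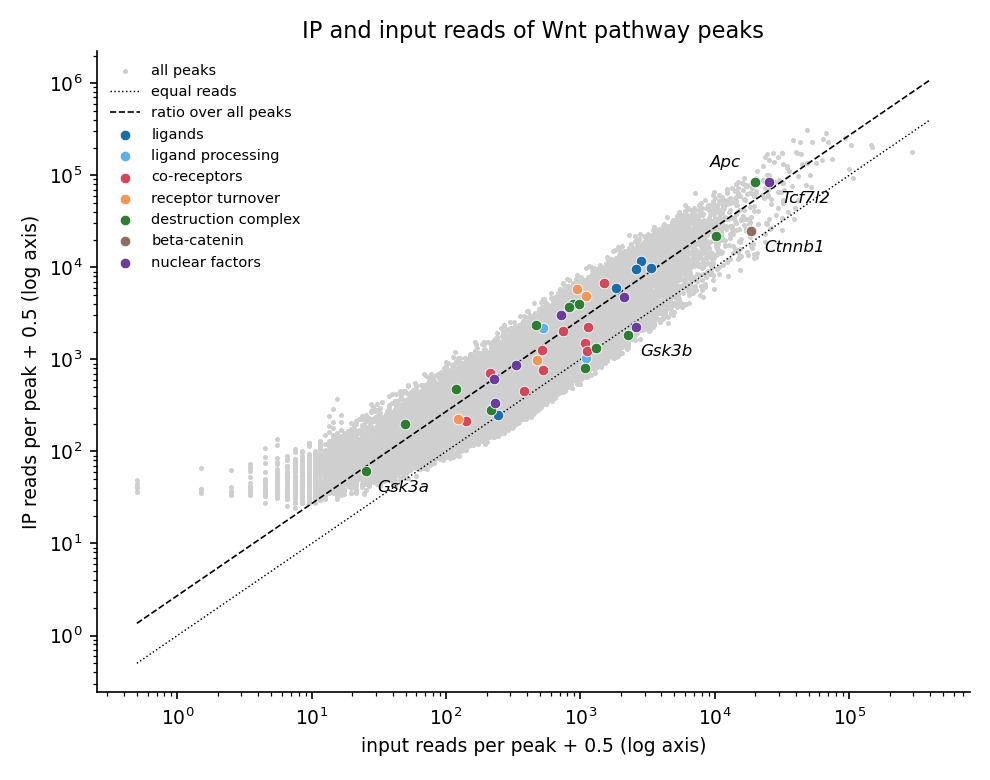
IP reads (vertical axis) against input reads (horizontal axis) per peak, both plus 0.5 on log axes, for all peaks (grey) and the 42 Wnt pathway rows (coloured by role). The dotted line marks equal reads and the dashed line the ratio over all peaks, 2.71. The largest Apc and Tcf7l2 peaks lie together near the top of the cloud, with Ctnnb1 and Gsk3b close to the line of equal reads.

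Set side by side, the roles differed in their medians but overlapped widely. Taken from the authors' deposited table, the strongest peaks had a median log2 fold change of 3.14 in 3 ligand genes (range 3.09 to 3.46), 2.42 in 3 co-receptor genes (1.46 to 4.71), 3.82 in 6 destruction complex genes (0.62 to 4.83) and 3.26 in 4 nuclear factor genes (2.28 to 4.34). For receptor turnover it was 4.20 in 2 genes (4.09 to 4.30) in the authors' deposited table. Without the opposite-strand Gsk3a row the destruction complex had 5 genes with a peak and a median of 3.94 in the authors' deposited table. The co-receptor range holds the whole range of the ligands and of the nuclear factors, and so does that of the destruction complex, so no role is set apart by its values. Among these 4 roles with at least 3 marked genes, the ligands were the most even by strongest peak. Within Wnt5a alone the peaks ran from 1.74 to 3.46 in the authors' deposited table. Summed reads gave ratios of 3.46 (3.39 to 3.54) for ligands, 2.34 (2.28 to 2.41) for co-receptors, 3.29 (3.26 to 3.33) for the destruction complex and 3.07 (3.03 to 3.11) for nuclear factors, sums that Apc and Tcf7l2 dominate in those of the destruction complex and nuclear factors. Of the 42 rows, 18 had an interval wholly above the ratio of 2.71 over all peaks, 20 wholly below it, and 4 held it. Of all peaks, 42.3% had a ratio above 2.71, counted by the ratio alone. Among the 4 rows that held it, the highest ratio was 2.709, in Lrp6, under the 2.715 over all peaks. By the ratio alone the members' count was thus also 18 of 42, near the 42.3%. Fewer IP than input reads were found in 4 rows (9.52%, against 11.3% of all peaks), one each in Wls, Apc, Gsk3b and Tcf7l2.

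Many of the Wnt peaks lay near the 3' end of their genes. The midpoint was in the last 10% of the gene span in 19 of 42 rows (45.2%, against 37.0% of peaks in protein-coding genes), and these came from 15 genes. The first 10% of the span held 6 rows (14.3%, against 9.61%), in Wnt5a, Lgr4, Axin2, Gsk3b, Tcf7l2 and Tle1. The median log2 fold change in the authors' deposited table was 2.66 in those 6 and 3.19 in the 19 of the last 10%. Over all protein-coding genes these medians were 2.67 and 2.99, so a lower 5' value is not particular to the members. By log2 read ratio the member medians were 1.44 and 1.42, with no lower value at the 5' end. In 8 of 11 genes with several peaks (72.7%, against 55.7% of 4895 such genes) the most 3' peak had a higher log2 fold change than the most 5' one in the authors' deposited table. The exceptions were Wnt5a, Wls and Znrf3. By the plain read ratio the count was 6 of 11 (54.5%, against 49.7%), since Lrp5 and Tle1 turned. Spans include introns, and 7 of the 42 rows (16.7%, against 13.0% of all peaks) run over more than 10000 bases, so these positions are coarse.

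**Figure D3:**
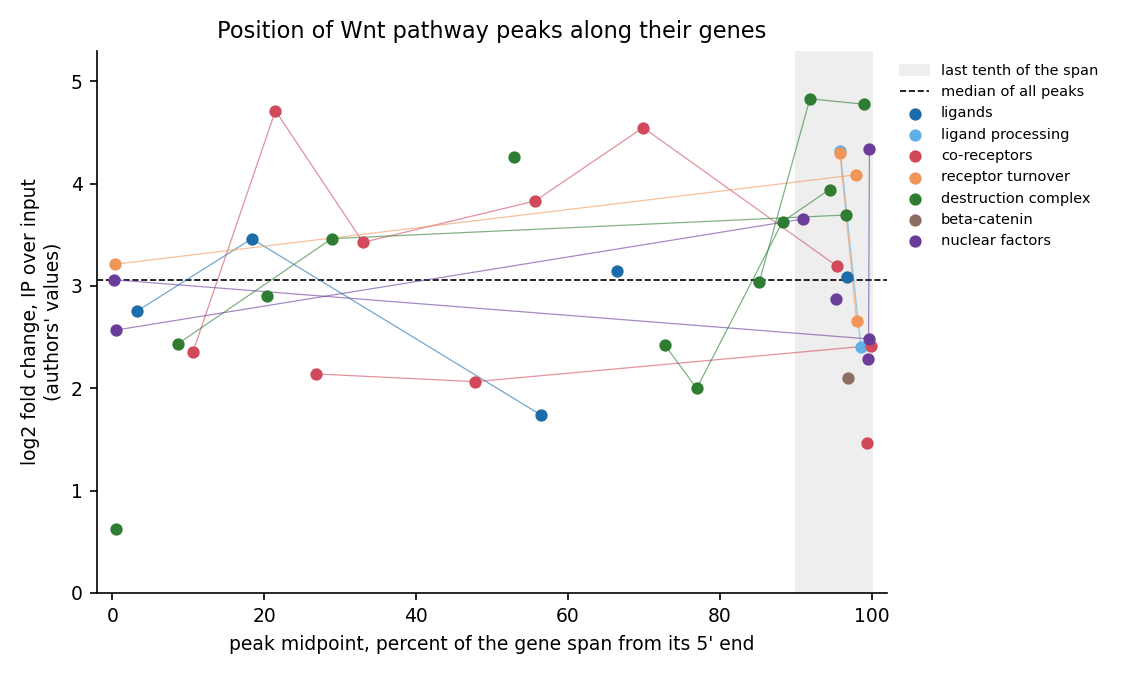
Log2 fold change in the authors' deposited table (vertical axis) against the midpoint of each of the 42 rows as a percent of the gene span from the 5' end (horizontal axis), coloured by role, with peaks of a gene joined by a line. The shaded band is the last 10% of the span, which holds 19 rows, and the dashed line is the median of all peaks, 3.06.

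The deposited fold change and the plain read ratio did not run in parallel over the rows. For each row, the log2 ratio of its reads (pseudocount 0.5) was subtracted from the value that the authors' deposited table gives. The difference was 1.88 in the median of all peaks. Among the 6 rows of the first 10%, it was 0.44 in the first Axin2 row, 0.51 in the 5' peak of Tle1, 0.93 in Gsk3b and 1.06 in the first Wnt5a peak, with 2.2 in Lgr4 and 1.88 in Tcf7l2. The median of the 6 was 1.0, with 2 of them above the median of all peaks. It was 2.22 in the 17 rows between (range 1.39 to 2.95) and 1.90 in the 19 rows of the last 10% (range 1.19 to 2.84), so the ranges overlap and the low median rests on 4 rows. Over all genes it was 1.69 in 1636 peaks of the first 10% and 1.87 in 6966 of the last 10%. The sources used here do not say what correction the deposited values carry, and what sets this difference was not tested.

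**Figure D4:**
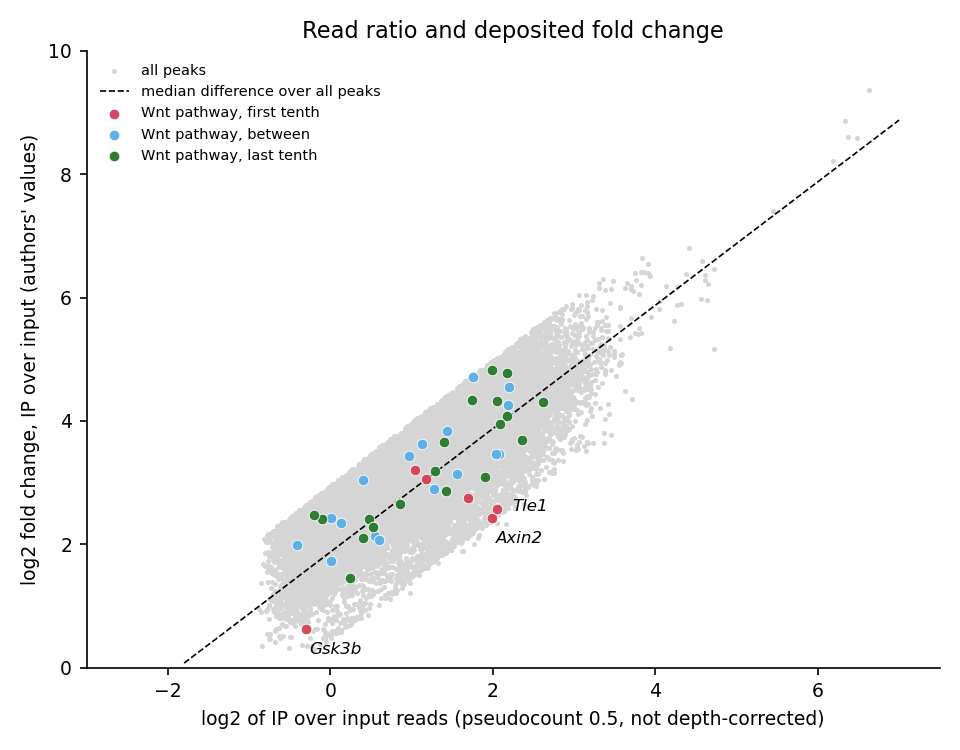
Log2 fold change in the authors' deposited table (vertical axis) against the log2 ratio of IP over input reads (horizontal axis, pseudocount 0.5, not corrected for depth) for all peaks (grey) and the 42 Wnt pathway rows, coloured by position along the gene. The dashed line is the median difference over all peaks, 1.88, and the first rows of Tle1, Axin2 and Gsk3b lie well under it.

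Of 11 members with a peak and an entry on their own strand in the RefSeq promoter table (GRCm38.p6), 3 had a peak that reaches the first 50 bases after an annotated start (27.3%, against 15.9% of 7306 such genes). The bases shared by peak and window are shown for these 3 because they are the only letters under Wnt peaks that could be read here, at most 30 for each gene, 5' to 3'. Capitals mark DRACH, the consensus around m6A, in which D is A, G or T, R is A or G, and H is A, C or T.
Lgr4 (chr2:109917672-109917696, plus strand): ggagccgcctcggggagagcgcgga
Tcf7l2 (chr19:55741820-55741849, plus strand): caataatctccgctcccAGACTactccgtt
Tle1 (chr4:72200849-72200878, minus strand): ctagcgagtgtgAAACCgcgtgttaatgta
The Tcf7l2 and Tle1 stretches each hold 1 match and the Lgr4 stretch none. Of 21263 windows of protein-coding genes, 50.4% had at least 1 match on the transcript strand in the 50 bases after the start and 52.9% on the other strand, so a match there is common. The transcript-strand share was 47.1% of windows reached by a peak and 8 of 26 windows of members (30.8%). Each stretch is part of a longer peak and was placed to hold the match where there was one, and the rest of each peak is not shown.

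Other genes of the pathway, from a list drawn up by role and not by value, were marked about as often as the members. A peak was found in 60 of 93 (64.5%), against 44.2% of all protein-coding genes under the same rule. Unlike the 53.6% given for the members, this share is not limited to genes of like span. The strongest peaks of the 60 had a median of 3.51 (log2) by the authors' deposited table. That is also the value of all protein-coding genes with a peak, 3.51. Above the median of all genes were 30 of these 60, as 50% of genes are. All 11 planar polarity genes had a peak, as did 18 of 21 other cytoplasmic genes, 12 of 17 other nuclear genes, 8 of 12 other receptors, 8 of 17 other secreted modulators and 3 of 15 other ligands (Wnt4, Wnt5b and Wnt6). The planar polarity genes also had the longest median span of these roles, 108 kb. Taking each gene's strongest peak, where it had at least 50 input reads, the highest values were 5.35 in Csnk1g3 (a casein kinase 1 gamma), 5.12 in Rnf146 (a ubiquitin ligase that acts on Axin) and 4.84 in Invs (inversin, which binds Dishevelled) in the authors' deposited table. The lowest of these strongest peaks were 1.64 in Gpc4 (a glypican), 2.07 in Frzb (a secreted Wnt antagonist) and 2.10 in Ryk (a Wnt receptor) in the authors' deposited table, each with fewer IP than input reads. Apc2, a relative of Apc, was lower at 1.54 in the authors' deposited table, but its strongest peak had 49 input reads. Weaker peaks of other genes in the list also lay lower, down to 0.36 in Apc2 in the authors' deposited table. Chd8, Celsr3 and Bcl9l had the most peaks, 9, 6 and 5. Dact1, Rnf146 and Prickle2 had the most IP reads over their peaks, 35078, 32028 and 30805. The 10 Frizzled receptors all had a peak, 19 in total, with a median of 3.82 for the strongest in the authors' deposited table and 3 of the 19 (15.8%) in the last 10% of the span. Of the 137 peaks of the 93 other pathway genes, 74 (54.0%) lay there. The Frizzled genes had a median span of 4.59 kb, and the difference from the members was not tested.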

How the data were processed

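Polyadenylated RNA was fragmented and enriched with an antibody to m6A, per the labels' protocols. Per the submitters' processing notes the tools were STAR 2.5.2a, Trimmomatic 0.32 and bcl2fastq 2.17.1.14, with the builds GRCm38.p6 and GRCh38.p13. The sources used here name no peak caller or counter. The deposited counts are whole reads per peak, 1 IP and 1 input column, per the file headers, and whether libraries were summed or averaged is unstated. The deposited log2 fold change was read as IP over input from the column name and its positive values, and its test, p-value and adjusted p-value are the authors'. The deposited score follows from the adjusted p-value. Intervals and strands of all 21195 peaks were equal in both files. Starts were read as zero-based and are printed 1-based.

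Peaks were joined to RefSeq gene spans (GRCm38.p6) by the rule in the text, with pandas 2.3.3; the join was tested on simulated data. Strands came from the RefSeq promoter table, which held 19 of the 30 members. Intervals of IP over input ratios are exact Clopper-Pearson 95% intervals (scipy 1.17.1), for counting error only and assuming summed reads, since reads lacking molecular identifiers can be copies of 1 molecule. Ratios are not corrected for depth. No test across genes was made, and alternatives changed the overlap, strand, strength, depth, span and the value taken per gene. All 30 members are named. A member's peaks are each given up to 3, beyond that the highest, lowest and largest, and the remaining Apc peaks were added after their values were seen. Of the wider list the 3 highest and 3 lowest with at least 50 input reads, the 3 with most peaks and the 3 with most IP reads are named. Members and lists were chosen with earlier results of these data known. Sequence was read only from the RefSeq promoter table.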

Additional observations from a re-analysis of the deposited data

Results flagged for a closer look

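Rows on the strand not used for a member were flagged because they hold more IP reads than the 3 that a count of 0 allows. Wnt5a has 2 such rows on the minus strand of chromosome 14, both wholly inside the 5545-base peak of the plus strand. The 965-base row (28510424 to 28511388) had 2234 IP and 830 input reads, a ratio of 2.69 (exact 95% interval 2.48 to 2.92), and the authors' deposited table put it at 2.40 (log2 fold change). The 275-base row had 39 IP and 21 input reads, a ratio of 1.86 (1.07 to 3.32), and 2.26 in the authors' deposited table. By the rule they lie on no RefSeq gene other than Wnt5a, and their gene identifier differs from that of the plus-strand rows. The sources used here do not say whether the libraries keep strand, so reads of both strands may not be told apart. The 100-base row on the plus strand at Gsk3a, with 61 IP and 25 input reads, was flagged too. The rule kept that row, but it lies opposite to the annotated strand of the gene.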

How the results depend on the processing

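No paired analysis was possible because no column belongs to a library or genotype, and for the same reason knockout against control, its replicate block, the runs without single replicates and the other count tools were not run. Counts and shares of members and rows kept within 1.5 times, or inside their 95% interval, under all overlap, strand, strength, depth and span alternatives. The rule gave 20 genes and 42 rows at 20%, 50% and 90% overlap and at any overlap. The median of the strongest member peaks in the authors' deposited table, 3.56, was 3.67 with values of at least 2, 3.69 with adjusted p under 1e-10, and 3.66 with at least 50 input reads, with peaks on 1 gene or with the annotated strand, a choice made after seeing the data. It was 3.30 for the peak with most IP reads and 3.10 for the mean over peaks. With most IP reads the role medians in the authors' deposited table were 3.70 for the destruction complex and 2.72 for nuclear factors. Those of ligands and co-receptors stayed at 3.14 and 2.42. With the mean they were 3.09 for ligands, 2.21 for co-receptors, 3.10 for the destruction complex and 2.99 for nuclear factors. By log2 read ratio they were 1.90 for ligands, 0.60 for co-receptors, 2.13 for the destruction complex and 1.58 for nuclear factors. The ranking of roles was not kept. Nuclear factors lay above ligands in the main medians, 3.26 and 3.14, and below them in each of these alternatives. Depth limits the rows with few reads most, such as Gsk3a and the first Axin2 row. The cause of these shifts was not tested.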
